A study of Mus musculus with 71 samples.

Results

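The miR-297, miR-466, miR-467 and miR-669 families are the repeat-derived miRNAs of rodents whose largest cluster lies inside the gene Sfmbt2. All rows of the deposited count tables whose name begins with 1 of these 4 family names were taken as members if they held at least 1 raw count in any library. This gave 37 members of 55 such rows listed, among 1085 miRNA rows with a count. Small RNA libraries had been made from the left cortex, the left striatum and the right cerebellum of male mice. Animals were either wild type (WT) or carried the DYT1KI allele, a knock-in of mutated torsinA that models the movement disorder DYT-TOR1A. Each animal was naive or had its right sciatic nerve crushed for 1 minute at 12 weeks of age. Both naive and injured samples carry the label of 12 weeks after injury. Each of the 12 groups held 6 libraries, apart from the cerebellum of injured WT mice with 5, and the 71 libraries came from 24 numbered animals.

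Sfmbt2 encodes a Polycomb group protein. In the mouse it is an imprinted gene, expressed from the paternal copy in the early embryo and the placenta, and the miRNA cluster in its intron is best known for its part in placental growth. The hairpins arose by repeated duplication, and many of their products are made of runs of alternating U and G, or of A and C, so that several family members are near-identical in sequence. A miRNA directs repression of messenger RNAs mainly through its seed, the bases 2 to 8 at its 5′ end.

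Mature sequences could be taken from RefSeq (GRCm38.p6) for 4 of the 37 members. They are shown in the 5′ to 3′ direction with the seed in capitals, as examples of the miR-466 and miR-467 families. No miR-669 or miR-297 sequence is among them, and neither is the most abundant member, miR-467e-5p.
miR-466j: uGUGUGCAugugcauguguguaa
miR-466k: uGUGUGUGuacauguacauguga
miR-466i-3p: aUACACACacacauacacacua
miR-467h: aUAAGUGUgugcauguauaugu
The first 2 are UG-rich, miR-466i-3p is built of AC repeats, and no 2 of the 4 share a seed. On GRCm38.p6 these RefSeq entries lie on the plus strand at chr10:60960802-60960824 (miR-466j), chr3:85467396-85467418 (miR-466k), chr13:17747552-17747573 (miR-466i-3p) and chr9:115381898-115381919 (miR-467h), so none of the 4 shown copies is the one in Sfmbt2. miR-466j is counted in a row joined with miR-466m-5p and miR-669m-5p, and miR-466k in a row joined with miR-466l-5p. Names joined by a slash share 1 row of counts and cannot be separated here. How reads that match several hairpins were assigned is not given in the sources used here, so the split of counts between near-identical members is uncertain.

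In the GENCODE annotation of GRCm38, Sfmbt2 lies on the plus strand at chr2:10370510-10595253. Of 81 annotated hairpins of the 4 families, 71 lie within Sfmbt2, all on its plus strand, and 0 of them overlap an exon. They fall between chr2:10466663 and chr2:10518279, a stretch of 51617 bp inside intron 10 of the transcript Sfmbt2-201. The other 10 hairpins lie elsewhere in the genome. By hairpin name, 29 members come only from Sfmbt2 and held 95.5% of all counts of the members. A further 6 members have hairpins both there and elsewhere, and 2 have none in Sfmbt2. These are miR-466i-5p, from a hairpin at chr13:17747473-17747593, and miR-467h on chromosome 9.

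Counts were concentrated in few members and almost entirely in 1 arm of the hairpins. The 5p arm supplied 98.7% of the counts from 25 members, and 11 members of the 3p arm supplied 1.35%. The miR-467 family held 55.5% of the counts, miR-669 34.5%, miR-466 9.70% and miR-297 0.329%. miR-467e-5p alone had 68324 counts over all libraries, 39.5% of the total, and its single hairpin lies at chr2:10505721-10505807. miR-669c-5p followed with 43266 counts (24.98%, hairpin chr2:10509296-10509404) and miR-467c-5p with 17342 (10.01%, hairpin chr2:10473931-10474027). Next in mean level were miR-467d-5p, miR-466h-5p, which has been described as pro-apoptotic in mouse and hamster cells, miR-466i-5p, miR-669o-5p, and miR-669a-5p/669p-5p, of which miR-669a is known to repress MyoD in mouse cardiac progenitors. miR-669k-5p, miR-669d-5p, miR-669h-5p and miR-669b-5p complete the 12 most abundant. A total of 13 members were counted in every library and 4 in a single library. These 4 were miR-467h with 5 counts, miR-669b-3p and miR-466m-3p with 3 each, and miR-466f-3p/466i-3p with 2.

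The number of hairpins did not order the levels. miR-467e-5p and miR-669c-5p have 1 hairpin each, while miR-669a-5p/669p-5p with 14 had 2945 counts and miR-467a-5p/467b-5p with 11 had 260. Among the 20 members with 1 hairpin that lies in Sfmbt2, miR-467e-5p, miR-467d-5p, miR-669c-5p, miR-669o-5p and miR-466h-5p come from between 39.1 and 48.2 kb after the first hairpin. miR-467c-5p, at 7.3 kb, is the abundant exception. Low members lie in the same stretches. miR-297c-5p at 42.4 kb averaged 0.204 CPM (counts relative to library size, the usual per-million scale) in cerebellum, close beside miR-669c-5p at 42.6 kb with 103 CPM there.

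**Figure D1:**
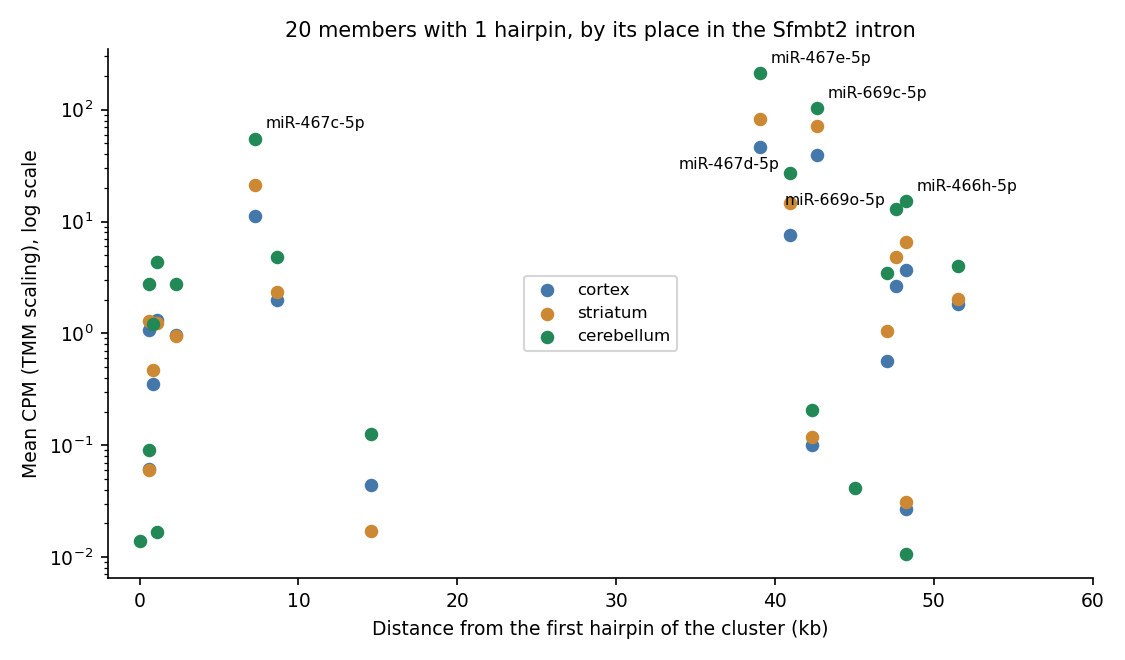
Mean CPM of the 20 members with a single hairpin inside Sfmbt2 (log scale) against the distance of that hairpin from the first one of the cluster in kb, with 1 colour per brain region over all libraries of that region (24, 24 and 23). Members with a mean above 5 CPM in cerebellum are named, and values of 0 are not drawn. miR-467e-5p at 39.1 kb has the highest level in each region.

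Total counts per library were 5182284 to 10064827 for cortex, 6161668 to 10219295 for striatum and 8199033 to 12582875 for cerebellum, ranges that overlap but lie highest for cerebellum. The number of members counted was 17 to 29 in a cortical library, 22 to 28 in a striatal one and 24 to 32 in a cerebellar one. The regions were checked against marker miRNAs in naive WT mice. miR-206-3p ranged from 2076 to 3268 CPM in cerebellum and from 11.6 to 17.8 in cortex, miR-187-3p was highest in striatum and miR-132-3p in cortex. The cerebellum also differs from the other regions by the side of the brain, by the RNA kit (mini against micro columns) and by depth, which cannot be told apart from region. The placental and trophoblast miRNAs miR-322-5p, miR-503-5p and miR-675-3p were looked up as a second mark of the tissue best known for the cluster. Of these, 2 were counted, and 0 differed between the regions of naive WT mice.
One further feature touches results below. miR-24-3p had 94332 to 132962 counts in 8 cortical libraries, 69536 and 78452 in 2 cerebellar ones, and 0 in all others, including every striatal library. The 8 cortical libraries include all 6 naive ones with a biological replicate number (biol rep) of 1 to 3.

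The first comparison asks whether the brain region sets the level of the cluster. The summed level of the 37 members, as CPM after scaling by the trimmed mean of M-values (TMM) over all libraries, rose from cortex over striatum to cerebellum. In naive WT mice the lowest, median and highest libraries were 123.5, 136.4 and 158.2 CPM in cortex, 184, 246 and 261 in striatum and 337, 531 and 566 in cerebellum. Over all groups the sum was 103 to 176 CPM in the 24 cortical libraries, 184 to 298 in the 24 striatal ones and 337 to 684 in the 23 cerebellar ones, so that the 3 regions did not overlap. With CPM of raw library totals the order was the same but the distance smaller. Cortical sums then ran from 117 to 175, striatal sums from 243 to 323 and cerebellar sums from 278 to 440, and striatum and cerebellum overlapped. In bulk tissue, fewer cells of a type and less RNA per cell cannot be told apart.

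**Figure D2:**
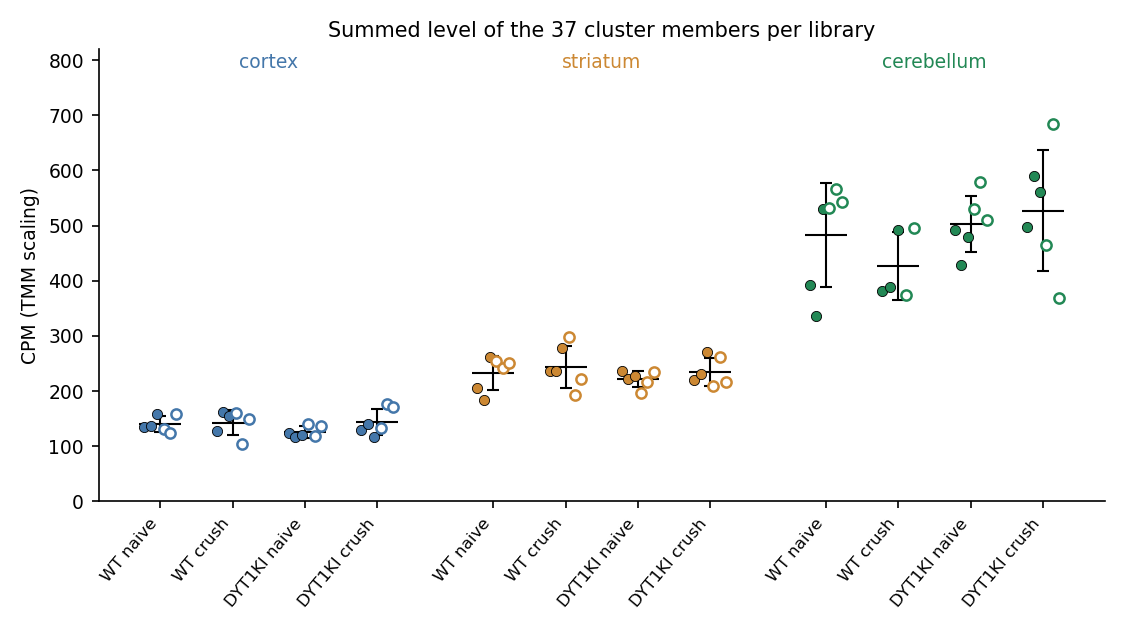
Summed level of the 37 members in CPM (TMM scaling, linear axis from 0) for each library of the 12 groups, with the mean and SD as horizontal and vertical bars. Filled points are biol reps 1 to 3 and open points are biol reps 4 to 6. All cerebellar libraries, at 337 CPM or more, lie above all striatal ones, which reach 298.

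miR-467e-5p followed the same order. Its lowest, median and highest levels in naive WT mice were 37.3, 40.8 and 55.0 CPM in cortex, 68.2, 88.8 and 96.4 in striatum, and 141, 243 and 271 in cerebellum. No library of one region reached the range of another. Its log2 difference (± SE) was 2.19 ± 0.16 between cerebellum and cortex (edgeR quasi-likelihood test, adjusted p = 5.28e-10), 1.16 ± 0.16 between cerebellum and striatum (adjusted p = 2.04e-06) and 1.03 ± 0.16 between striatum and cortex (adjusted p = 2.01e-05).
miR-467c-5p had a like pattern, with 8.58, 10.5 and 14.1 CPM in cortex, 16.7, 21.9 and 27.5 in striatum, and 30.4, 56.2 and 67.3 in cerebellum. The 3 ranges were again separate. It was higher in cerebellum by 2.07 ± 0.19 over cortex (adjusted p = 1.43e-08) and by 1.02 ± 0.18 over striatum (adjusted p = 7.1e-05).
miR-466h-5p had 2.66, 3.84 and 4.48 CPM in cortex, 4.52, 6.15 and 7.44 in striatum and 10.52, 17.02 and 18.08 in cerebellum, with separate ranges. Its cerebellum to cortex difference was 1.90 ± 0.18 (adjusted p = 1.41e-08). miR-669o-5p had 1.997, 2.911 and 3.855 CPM in cortex and 10.99, 12.86 and 15.81 in cerebellum, a difference of 2.003 ± 0.194 (adjusted p = 2.81e-08).

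miR-669c-5p, the second most abundant member, separated the regions differently. It had 32.9, 36.4 and 49.8 CPM in cortex, 54.9, 74.4 and 82.0 in striatum, and 63.3, 105 and 114 in cerebellum, so striatum and cerebellum overlapped. It was higher in cerebellum than in cortex (1.12 ± 0.15, adjusted p = 3.23e-06), while the difference to striatum did not pass (0.24 ± 0.15, adjusted p = 0.17). miR-467d-5p had 6.32, 8.78 and 9.88 CPM in cortex, 12.3, 16.2 and 18.4 in striatum, and 21.5, 25.2 and 27.5 in cerebellum, with separate ranges. Its cerebellum to cortex difference was 1.40 ± 0.15 (adjusted p = 8.13e-08), and its difference to striatum was 0.47 ± 0.14 (adjusted p = 0.00677), under the 2-fold limit that a call between regions also needed.
The count ratio of miR-467e-5p to miR-669c-5p, which no scaling between libraries changes, was 1.11 in cortex, 1.24 in striatum and 2.29 in cerebellum (medians, naive WT). The naive WT libraries of cerebellum spanned 2.04 to 2.385, above the highest of cortex (1.32) and striatum (1.295). Over all groups the cerebellar range, 1.32 to 2.60, overlapped the cortical and striatal ones at its lower end.

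Across the members, 22 of 37 passed the filter on low counts in naive WT mice. Of these 18 differed between cerebellum and cortex, 17 higher and 1 lower, where 44.2% of all 534 miRNAs tested were called and 17.4% were called higher. Between cerebellum and striatum 16 differed, 15 higher and 1 lower (all miRNAs: 41.8% called, 17.8% higher). The median log2 difference of the tested members was 1.348 over cortex and 1.203 over striatum, against -0.13 and -0.12 for all miRNAs. As 7 of the 22 passed the filter through cerebellum only, they had to be higher there. Their differences are descriptions, and so are the medians above, which include them and are in part fixed by the filter. These 7 are miR-466f/466f-5p, miR-466n-3p, miR-466j/466m-5p/669m-5p, miR-669b-5p, miR-669f-5p, miR-669l-5p and the joined row that starts with miR-466a-5p. Of the 10 members that passed in every region alone, 8 rose and 1 fell from cortex to cerebellum, and 5 were higher and 1 lower than in striatum.
Of these 7, miR-466n-3p differed between cerebellum and cortex by 2.86 ± 0.48, miR-466f/466f-5p by 2.73 ± 0.26 and miR-466j/466m-5p/669m-5p by 1.79 ± 0.27. miR-466f/466f-5p was at 0.422, 0.588 and 0.871 CPM in cortex and 3.26, 4.49 and 5.54 in cerebellum. Against striatum their differences were 1.69 ± 0.23 (miR-466f/466f-5p), 1.67 ± 0.26 (miR-466j/466m-5p/669m-5p), 2.21 ± 0.35 (miR-669b-5p) and 1.48 ± 0.32 (miR-669l-5p). miR-669d-5p, which passed the filter in striatum and cerebellum but not in cortex alone, exceeded its cortical level in cerebellum by 1.35 ± 0.24 (adjusted p = 5.15e-05). Among the members that passed in every region, miR-669o-5p (1.29 ± 0.19, adjusted p = 5.03e-06), miR-466h-5p (1.13 ± 0.17, adjusted p = 7.87e-06) and miR-669a-5p/669p-5p (1.65 ± 0.34, adjusted p = 0.000345) were also higher in cerebellum than in striatum.

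**Figure D3:**
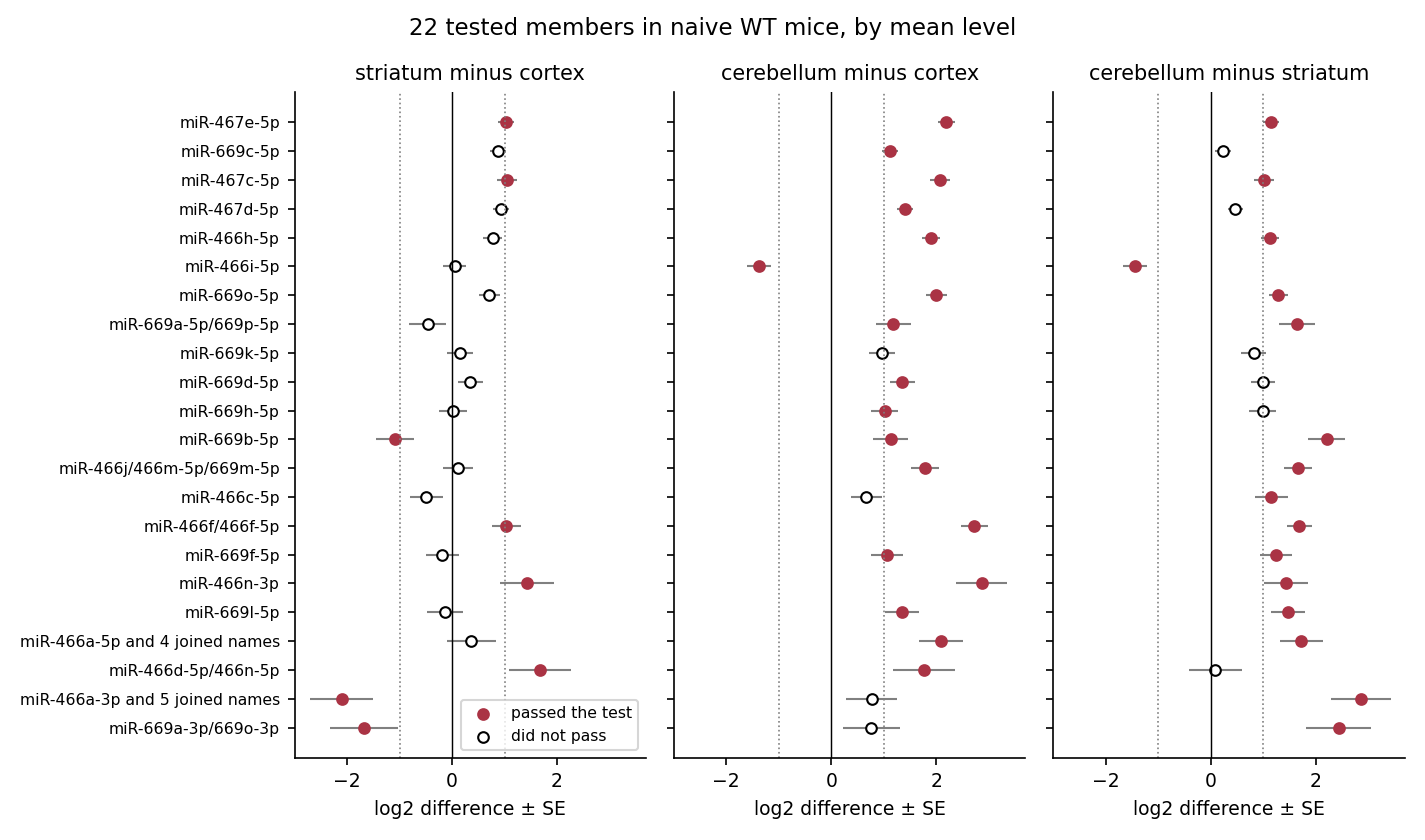
Log2 differences between regions of naive WT mice (points) with their SE (bars) for the 22 tested members, ordered from the highest mean level at the top. Filled points passed the test (adjusted p under 0.05 and at least 1 log2 unit, dotted lines). Most members lie to the right of 0 in both cerebellum panels, and miR-466i-5p lies at -1.38 and -1.44.

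The 15 members that were not tested held 0.838% of the cluster's counts. Of these 14 had more counts in cerebellum than in either other region, with 756 counts in all against 382 in striatum and 314 in cortex. miR-669e-5p, for example, had 233, 108 and 73 counts. miR-297b-5p, miR-467h, miR-466m-3p, miR-669b-3p and miR-466f-3p/466i-3p had counts in cerebellum only, 8 or fewer each. The exception was miR-466h-3p with 2 counts in cerebellum, 7 in striatum and 6 in cortex. Cerebellar depths lay highest, and none of these counts was tested.

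miR-466i-5p went the other way. Its lowest, median and highest levels in naive WT mice were 7.59, 8.14 and 10.4 CPM in cortex, 7.45, 8.21 and 10.7 in striatum, and 1.75, 4.19 and 5.14 in cerebellum. Every cerebellar library lay below every library of the other regions. It was lower in cerebellum by 1.38 log2 units than in cortex (-1.38 ± 0.23, adjusted p = 2.42e-05) and by 1.44 than in striatum (-1.44 ± 0.23, adjusted p = 1.57e-05). This is the abundant member whose annotated hairpin is not in Sfmbt2.
Over the 12 group means, its log2 CPM correlated with that of miR-467e-5p at Pearson's r = -0.752, while miR-466h-5p (0.997), miR-467c-5p (0.996) and miR-466n-3p (0.986) were the most alike. These values describe 12 means that share regions and libraries.

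The other mouse groups give the same regional comparison in other animals. In naive DYT1KI mice 19 of 21 tested members were higher in cerebellum than in cortex (40.1% of all miRNAs called, 17.1% higher) and 16 higher than in striatum (42.9% called, 18.3% higher). In injured WT mice 16 of 20 were higher and 1 lower than in cortex (36.9% called, 15.6% higher), and 11 higher and 1 lower than in striatum (39.8% called, 15.7% higher). In injured DYT1KI mice 17 of 19 were higher than in cortex (40.6% called, 15.8% higher) and 11 than in striatum (42.9% called, 15.8% higher). These counts too include members that passed the filter through cerebellum only, 7 in naive DYT1KI, 6 in injured WT and 8 in injured DYT1KI mice. Of the members that passed in every region alone, 7 of 8, 5 of 8 and 9 of 10 were higher in cerebellum than in cortex in these groups, and 5 of 8, 3 of 8 and 5 of 10 were higher than in striatum. Among them 1 was lower in both comparisons of injured WT mice, and 0 were lower in DYT1KI mice. miR-467e-5p differed between cerebellum and cortex by 2.33 ± 0.13, 1.80 ± 0.16 and 2.22 ± 0.15 in these 3 groups (adjusted p = 4.19e-11, 3.74e-08 and 2.01e-10). miR-466i-5p was lower in cerebellum of injured WT mice (-1.57 ± 0.28 against cortex, adjusted p = 0.00011). In DYT1KI mice its differences, -0.39 ± 0.22 in naive and -0.92 ± 0.18 in injured animals, did not pass (adjusted p = 0.126 and 0.000211, the latter under the 2-fold limit).

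Differences between striatum and cortex were fewer and less even between mouse groups. In naive WT mice 8 of 22 members differed, 5 higher and 3 lower in striatum, where 27.7% of all miRNAs were called (10.5% higher, 17.2% lower). Of the 10 members that passed in every region alone, 2 were called, both higher. The 3 lower members passed the filter in neither region alone, nor did miR-466d-5p/466n-5p, miR-466f/466f-5p and miR-466n-3p. Striatal medians were 0.256 CPM for the joined row that starts with miR-466a-3p and 0.331 for miR-669a-3p/669o-3p, where a count of 3 is 0.238 to 0.579 CPM. The directions depend on the setting: 1 was higher and 3 lower with upper-quartile scaling, 1 higher and 5 lower within biol reps 1 to 3, and 4 higher and 0 lower within biol reps 4 to 6. The shares of all miRNAs called in each direction under these settings are not given here, so whether all calls moved alike is not shown. miR-467e-5p, miR-467c-5p (1.05 ± 0.19, adjusted p = 0.000122), miR-466d-5p/466n-5p, miR-466f/466f-5p and miR-466n-3p were higher. miR-669b-5p (-1.09 ± 0.37, adjusted p = 0.0178), miR-669a-3p/669o-3p (-1.68 ± 0.65, adjusted p = 0.0362) and the joined row that starts with miR-466a-3p (-2.10 ± 0.60, adjusted p = 0.00631) were lower. In the other groups 0 members were lower. In naive DYT1KI mice 2 of 21 were higher (20.5% of all miRNAs called, 8.47% higher), miR-669c-5p and miR-467c-5p. In injured WT mice 3 of 20 were higher (17.4% called, 8.52% higher), all of the miR-466 family. Their cortical levels were close to 0. The medians there were 0 CPM for the joined row that starts with miR-466a-5p, 0.406 for miR-466d-5p/466n-5p and 0.504 for miR-466f/466f-5p. In injured DYT1KI mice 5 of 19 were higher (17.9% called, 9.35% higher), among them miR-467d-5p (1.05 ± 0.19, adjusted p = 0.000172) and miR-669o-5p (1.13 ± 0.27, adjusted p = 0.00263). Of the members that passed in every region alone, 2 of 8 were called in naive DYT1KI, 0 of 8 in injured WT and 2 of 10 in injured DYT1KI mice. The counts for this pair of regions depend on the libraries. Without the libraries that hold miR-24-3p, 2 members were called in naive WT mice, both higher. The difference of miR-669a-3p/669o-3p was then 0.07 (adjusted p = 0.963). That fit keeps only biol reps 4 to 6 of the naive WT cortex, and the effect of fewer libraries was not tested.

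For other miRNAs built of such repeats, 5 non-members hold a run of UGUGUGUG or ACACACAC in their RefSeq mature sequence, against 0.633% of the 1738 mature sequences in the table that hold either run, members included (given strand only). The sequences of 3 of them are shown for comparison with the UG-rich members, again with the seed in capitals.
miR-574-5p: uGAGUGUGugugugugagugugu
miR-1187: uAUGUGUGuguguauguguguaa
miR-32-3p: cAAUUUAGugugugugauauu
Of the 4 of them that were tested in naive WT mice, miR-32-3p was higher in cerebellum than in cortex (1.12 ± 0.17, adjusted p = 1.17e-05) and miR-574-5p was lower (-1.11 ± 0.21, adjusted p = 9.85e-05). miR-672-5p, at 80 to 164 CPM in cerebellum and 254 to 307 in striatum, was lower in cerebellum than in striatum (-1.29 ± 0.15, adjusted p = 2.93e-07), and miR-3082-5p did not pass (0.84 ± 0.23 over cortex, adjusted p = 0.00313, under the 2-fold limit). Of the 18 mature miRNAs of the miR-290 to miR-295 cluster, another embryonic and placental cluster of the mouse, 3 were counted at all, with 2 to 30 counts over 71 libraries.

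The second set of comparisons asks what the nerve injury, the mutation and their combination do within a region. In cortex 17 members were tested, in striatum 20 and in cerebellum 25, in 7 comparisons per region. Of these 21 comparisons, 20 called 0 members. Any miRNA was called only for the averaged injury effect in cortex (30.9% of 530) and the averaged genotype effect in cerebellum (5.05% of 555). In every other comparison 0 miRNAs of any kind were called, so a count of 0 there is not particular to the members. Comparisons of a region share their groups of mice, so they are not independent of each other.

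In striatum 0 of 20 members passed in any of the 7 comparisons (edgeR), and 0% of all 547 miRNAs were called. Between 0 and 1 members had an unadjusted p under 0.05 (all miRNAs: 2.74% to 13.2%), and DESeq2 and limma also called 0 members. Given next is the member with the smallest unadjusted p in each comparison. For injury these were miR-669b-5p in WT mice (0.54 ± 0.31, adjusted p = 0.933), miR-669o-5p in DYT1KI mice (0.36 ± 0.18, adjusted p = 0.588) and miR-669d-5p averaged over genotypes (-0.37 ± 0.16, adjusted p = 0.443). For genotype they were miR-467e-5p in naive mice (-0.17 ± 0.09, adjusted p = 0.975), miR-466j/466m-5p/669m-5p in injured mice (-0.35 ± 0.24, adjusted p = 0.579) and miR-467e-5p averaged over treatments (-0.12 ± 0.07, adjusted p = 0.578). For the difference of the injury effect between genotypes it was miR-467d-5p (0.26 ± 0.17, adjusted p = 0.872). miR-467e-5p had 63.8 to 101 CPM over all 24 striatal libraries, the summed level had group means of 222 to 244 CPM, and the 4 groups overlapped.

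In cortex 0 of 17 members passed in any comparison with edgeR, DESeq2 or limma. Between 0 and 5 had an unadjusted p under 0.05 with edgeR (all miRNAs: 1.89% to 46%). In every comparison of cortex but 1, edgeR called 0% of all 530 miRNAs. The exception was the injury effect averaged over genotypes, where 30.9% were called. The 5 members were found here, where 46% of all miRNAs had an unadjusted p under 0.05. The smallest adjusted p belonged to miR-669a-3p/669o-3p (-1.58 ± 0.66, adjusted p = 0.0673) and miR-669c-5p (0.24 ± 0.11, adjusted p = 0.0928). Without the 8 libraries that hold miR-24-3p, which include every naive biol rep 1 to 3, 0 of 538 miRNAs were called. For the injury effect in DYT1KI mice alone, miR-466i-5p (0.52 ± 0.18, adjusted p = 0.111) and miR-669c-5p (0.37 ± 0.15, adjusted p = 0.133) did not pass. In WT mice miR-669a-3p/669o-3p (-2.35 ± 0.99, adjusted p = 0.11) and miR-466c-5p (-0.90 ± 0.40, adjusted p = 0.128) did not pass. For genotype, miR-669k-5p had the smallest p of the members (-0.46 ± 0.16 averaged over treatments, adjusted p = 0.99). Within the authors' deposited comparisons, 0 members had an adjusted p under 0.05 in any of 12 comparisons. The number of members with an adjusted p at all ran from 3 to 37, with 22 and 14 for injury in cortex of WT and DYT1KI mice, where 48 and 27 miRNAs of any kind were under 0.05.

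In cerebellum 1 member passed, in 1 comparison. miR-466i-5p was higher in DYT1KI than in WT mice when the genotype effect was averaged over treatments. Its lowest, median and highest levels were 1.75, 4.19 and 5.14 CPM in naive WT, 3.53, 5.85 and 7.23 in naive DYT1KI and 4.403, 5.648 and 7.56 in injured DYT1KI mice. The 5 libraries of injured WT mice had 1.38, 2.48, 3.07, 3.50 and 5.34. The WT and DYT1KI ranges overlapped under both treatments. The difference was 0.81 ± 0.22 (adjusted p = 0.0336), where 5.05% of all 555 miRNAs were called. Separately it was 0.73 ± 0.30 in naive and 0.90 ± 0.32 in injured mice, and neither passed (adjusted p = 0.344 and 0.162). miR-669c-5p followed with 0.43 ± 0.13 and did not pass (adjusted p = 0.0546).
The call of miR-466i-5p depends on single libraries. It was lost in 11 of 23 fits that leave out 1 library, with differences of 0.72 to 0.96 and adjusted p of 0.017 to 0.0952, and without the 2 libraries that hold miR-24-3p (0.69, adjusted p = 0.107). Within biol reps 1 to 3 the difference was 1.12 (adjusted p = 0.104) and within biol reps 4 to 6 it was 0.39 (adjusted p = 0.364). Beside it in the same comparison, the blood marker miR-144-3p was lower in DYT1KI (-1.58 ± 0.36, adjusted p = 0.0267) and the cerebellar marker miR-206-3p was higher (0.60 ± 0.14, adjusted p = 0.0267). Of 5 blood markers 3 were counted, and their summed level was 4.83 to 107 CPM in naive WT, 7.05 to 51.1 in injured WT, 7.68 to 15.8 in naive DYT1KI and 4.66 to 12.0 in injured DYT1KI mice. Their part in the result was not tested.

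**Figure D4:**
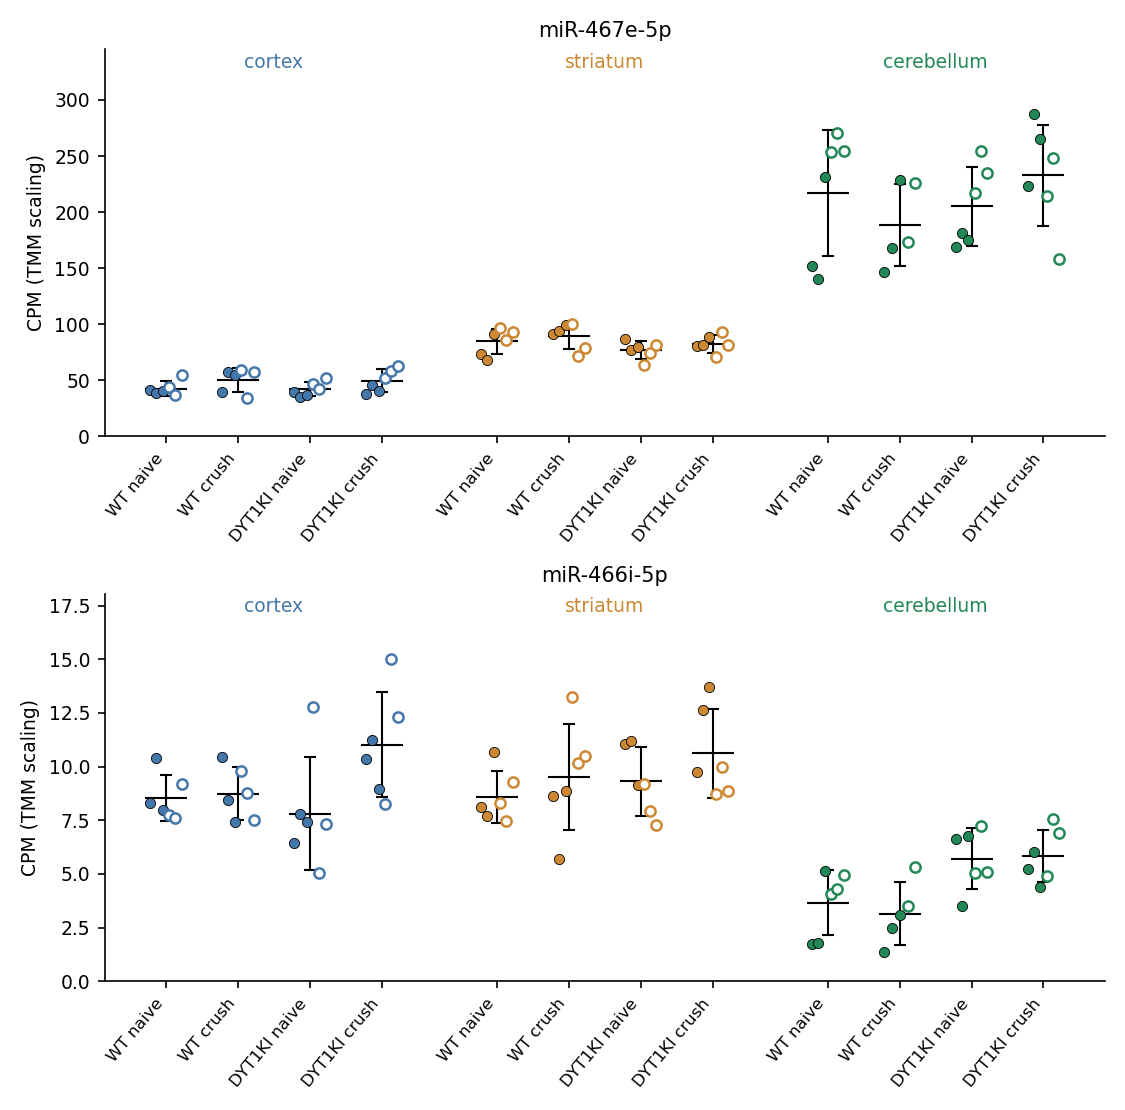
CPM (TMM scaling, linear axis from 0) of miR-467e-5p (top) and miR-466i-5p (bottom) in each library, by region and mouse group, with means and SD as bars. Filled points are biol reps 1 to 3 and open points biol reps 4 to 6. miR-467e-5p is highest in cerebellum and miR-466i-5p lowest, and the cerebellar DYT1KI groups of miR-466i-5p average 5.72 and 5.85 CPM against 3.67 and 3.15 in WT.

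For injury in cerebellum, 0 of 25 members passed in WT, in DYT1KI or averaged, and 0% of 555 miRNAs were called. miR-466c-5p (-0.82 ± 0.30, adjusted p = 0.543) and miR-669l-5p (-0.86 ± 0.32, adjusted p = 0.543) had the smallest unadjusted p in DYT1KI mice. There 4 of 25 members were under 0.05, against 7.39% of all 555 miRNAs. DESeq2 and limma also called 0 members there. Averaged over genotypes, miR-669l-5p (-0.50 ± 0.23, adjusted p = 0.574) and miR-669a-5p/669p-5p (-0.53 ± 0.26, adjusted p = 0.62) did not pass. The difference of the injury effect between genotypes was smallest in p for miR-466c-5p (-0.98 ± 0.42, adjusted p = 0.922).

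Several members split the naive libraries of cortex and cerebellum by biol rep. miR-669a-5p/669p-5p was at 8.38 to 14.98 CPM in biol reps 1 to 3 of the naive WT cerebellum and at 6.39 to 7.77 in biol reps 4 to 6. In naive DYT1KI cerebellum the values were 12.29 to 27.99 and 5.46 to 7.22, and in naive WT cortex 4.77 to 6.97 and 1.53 to 3.38. Biol reps 1 to 3 were thus higher without overlap in each of these groups, and in naive DYT1KI cortex. The same held in all 4 of these groups for miR-669f-5p, miR-669a-3p/669o-3p and the joined row that starts with miR-466a-3p.
miR-669b-5p and miR-466c-5p were higher without overlap in 3 of the 4. In naive WT cerebellum 13 of 37 members were higher in biol reps 1 to 3 and 5 in biol reps 4 to 6, against 163 and 137 of all 1085 miRNAs with a count. In naive DYT1KI cerebellum the members split into 12 and 3 (all miRNAs: 15.7% and 12.4%), in naive WT cortex into 7 and 1 (13.9% and 10.3%) and in naive DYT1KI cortex into 5 and 5 (16.2% and 10.1%). miR-467e-5p was higher without overlap in biol reps 4 to 6 in 3 of the 4. It had 141 to 232 CPM in biol reps 1 to 3 of naive WT cerebellum and 253 to 271 in 4 to 6. In naive DYT1KI cerebellum the values were 168.5 to 181.6 and 217 to 254, and in naive DYT1KI cortex 35.1 to 39.4 and 42.4 to 52.0. In naive WT cortex its ranges overlapped. miR-467c-5p and miR-466n-3p split in the same direction in the same groups. In striatum of naive mice 0 members (WT) and 1 member (DYT1KI) were higher in biol reps 1 to 3, and 3 and 2 in biol reps 4 to 6 (all miRNAs: 4.15% to 4.79% in each direction). What the biol rep number stands for beyond a count of animals is not stated, and these splits were not tested. They were noticed in the data. The libraries that hold miR-24-3p lie on the same side in cortex.

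**Figure D5:**
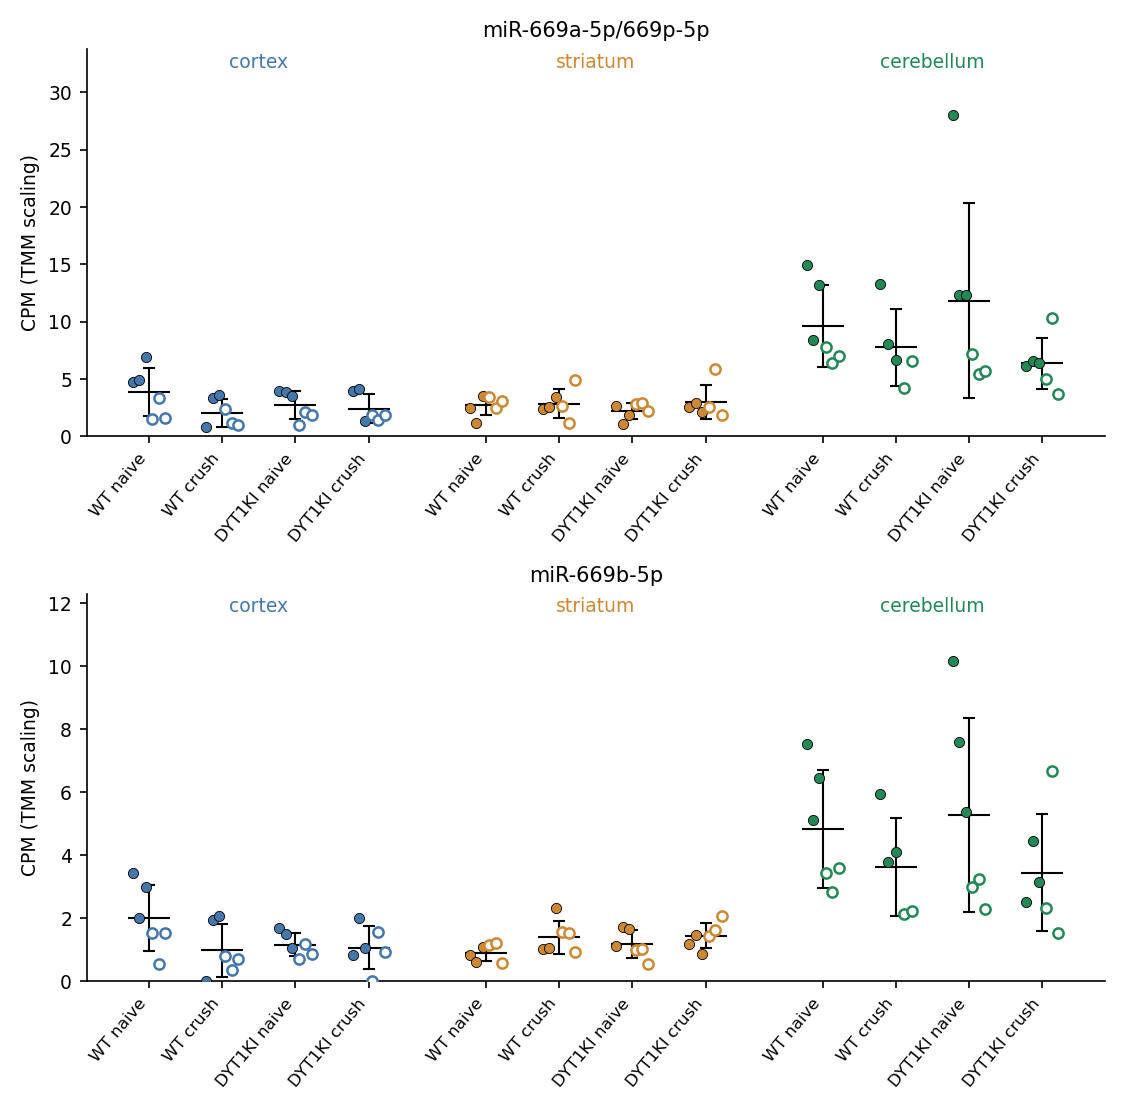
CPM (TMM scaling, linear axis from 0) of miR-669a-5p/669p-5p (top) and miR-669b-5p (bottom) in each library, by region and mouse group, with means and SD as bars. Filled points (biol reps 1 to 3) lie above open points (biol reps 4 to 6) in both naive groups of cerebellum and in naive WT cortex for both members, up to 27.99 CPM for miR-669a-5p/669p-5p. In striatum they overlap, except for miR-669b-5p in naive DYT1KI mice (1.13 to 1.71 against 0.561 to 1.04 CPM).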

How the data were processed

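Whole raw counts per mature miRNA were taken from the tables the authors deposited, 4 per region, which were compared and hold the same counts within a region. Per the file headers, the deposited tables also give the authors' log2 fold changes, the standard errors of these on the log2 scale, p-values and adjusted p-values. R 4.1.0 and featureCounts 1.6.4 are named in the submitters' processing notes. Aligner and annotation: not given in the sources used here. Normalized values of the authors were not used.

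Members were tested with all miRNAs in R 4.3.3 with edgeR 4.0.16 (TMM, filterByExpr with minimum count 10 and minimum total 15, robust quasi-likelihood test, Benjamini-Hochberg adjustment). Regions were compared within each mouse group, where a call also needed at least 1 log2 unit. Within a region its 4 groups were fitted together. DESeq2 1.42.0 and limma 3.58.1 served as alternatives. SE is the difference divided by the root of F. Named were the 12 most abundant members and, per comparison, those past the threshold (at most 10 per direction by adjusted p) or the 2 with the smallest p; from these the text gives a selection outside naive WT mice. Members and lists were chosen with earlier results of these data known. Fits were also run on simulated counts, drawn with the same spread for all miRNAs and without biol rep or animal differences. Their outcome is not given here and is no support for the calls. Animals recur across regions by the labels: deviations of libraries from group means correlated at 0.05 on average within an animal (over 0.1 in 23 of 70 pairs). Nothing in the labels ties a replicate to a separate litter or batch. A count of 3, the limit that a count of 0 allows, is 0.579 CPM in the shallowest library and 0.238 in the deepest, and covers counting error only.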

Additional observations from a re-analysis of the deposited data

Results flagged for a closer look

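The summed level and the 12 most abundant members, 13 measures in all, were checked in each of 12 groups of 5 or 6 libraries. In 7 cases 1 library lay far from the others of its group, by the ratio of its gap to the group's range. Chance gives such a distance in about 5% of groups.

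miR-669c-5p was at 30.7 CPM in injured WT cortex biol rep 5, with the next library at 42.8, and at 97.9 in injured DYT1KI striatum biol rep 3, with the next at 73.0. miR-466h-5p was at 5.96 in naive DYT1KI cortex biol rep 6, with the next at 3.28. miR-466i-5p was at 12.8 in naive DYT1KI cortex biol rep 4, with the next at 7.81. miR-669o-5p was at 22.15 in injured DYT1KI cerebellum biol rep 5, with the next at 12.8. miR-669a-5p/669p-5p was at 5.92 in injured DYT1KI striatum biol rep 5, with the next at 2.94, and at 27.99 in naive DYT1KI cerebellum biol rep 1, with the next at 12.3. The last of these libraries also holds miR-24-3p.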

How the results depend on the processing

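The cerebellum results held their direction. Members called between cerebellum and cortex or striatum stayed within 1.5 times the reported count under every alternative run, except cerebellum against striatum in injured DYT1KI mice, with 17 under upper-quartile scaling and 17 with no minimum fold (11 reported). With the animal as a replicate block, 17 and 15 members of naive WT mice were called against cortex and striatum, and leaving out 1 library gave 17 to 20 and 15 to 19. Upper-quartile scaling moved the median of all miRNAs between cerebellum and striatum from -0.12 to 0.24, where 18 members were then higher. All calls of any miRNA there split into 137 higher and 89 lower, against 95 higher among 223 as reported. For the other mouse groups, calls of any miRNA under the alternative runs are not given here.

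Striatum against cortex moved most. In naive WT mice (8 reported) it called 4 under upper-quartile scaling, 5 with limma, 6 and 4 within biol reps 1 to 3 and 4 to 6, 2 without libraries that hold miR-24-3p (where miR-669a-3p/669o-3p turned to 0.0692), and 2 to 8 leaving out 1 library, lowest without cortex biol rep 1 (without striatum biol reps 4 and 6: 5 and 4). In naive DYT1KI (2 reported) the counts were 0 with upper-quartile scaling, 7 with no minimum fold, 6 and 0 within biol reps 1 to 3 and 4 to 6, and 0 without miR-24-3p libraries. In injured WT (3 reported) they were 1, 9, 1 and 1 under upper-quartile scaling, no minimum fold and the 2 biol rep ranges. In injured DYT1KI (5 reported) they were 2 with DESeq2 size factors, 1 with upper-quartile scaling, 3 with DESeq2, 2 with no filter, 9 with no minimum fold and 2 within biol reps 4 to 6. Leaving out 1 library was run for regions in naive WT mice only. Over these fits calls of any miRNA ran from 134 to 166 between striatum and cortex. They ran from 221 to 245 between cerebellum and cortex and from 221 to 236 between cerebellum and striatum. For striatum against cortex, calls of any miRNA under the other settings are not given here. Whether the shifts in member counts are particular to the members is therefore not shown.

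Within cortex (0 reported) injury in WT gave 1 with biol rep as a replicate block, 2 with the biol rep range as a term and 3 within biol reps 1 to 3. Injury in DYT1KI gave 1 under each of these, and 0 to 2 leaving out 1 library, where 0 to 99 miRNAs of any kind were called. The averaged injury effect gave 2, 2 and 5, 2 with upper-quartile scaling, and 0 to 4 leaving out 1 library, highest without naive DYT1KI biol rep 4. Leaving out 1 library gave 25 to 220 calls of any miRNA for this effect, so the member counts moved together with a wide range of all calls. Shares of all miRNAs under the other settings in cortex are not given here. Within cerebellum, injury within biol reps 1 to 3 called 8 members in DYT1KI and 3 averaged (0 reported), all lower, where 12% and 5.75% of all miRNAs were called. The averaged genotype effect (1 reported) gave 2 with DESeq2, the replicate block and the range term, 0 with no filter, within either biol rep range and without miR-24-3p libraries, and 0 to 2 leaving out 1 library (0 to 70 miRNAs of any kind). The member count fell to 0 without naive WT biol reps 1, 2 or 4, injured WT 1, 2 or 3, naive DYT1KI 1, 4 or 5, or injured DYT1KI 2 or 5. The cause was not tested. For this genotype effect, calls of any miRNA under settings other than leaving out 1 library are not given here. Biol rep numbers stand for different animals in each group, and in injured WT cerebellum they run over other animals than in cortex, so these blocks are no pairing by design. Libraries of 1 region with the same number in different mouse groups correlated at 0.102 on average (over 0.1 in 49 of 105 pairs), against -0.02 for different numbers. Fits within each biol rep range, and fits without miR-24-3p libraries, were chosen after seeing the data.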
